A study of Mus musculus with 8 samples.

Results

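The 8 genes described here are markers used for mature mouse neutrophils, namely Ly6g, Cd177, Retnlg, Trem1, Trem3, Pglyrp1, Stfa2l1 and Mxd1. They were chosen by name, as the rows of the deposited count table whose gene symbol equals one of them, and 8 of 8 were found among 21878 symbols. Whole peripheral blood of female wild-type C57BL/6 mice aged 6 to 8 weeks was sequenced in 2 groups of 4 mice. The stress group was restrained for 6 h in a ventilated tube without food or water, and the control group comprised littermates that stayed in their cage, also without food or water. Fasting is therefore shared by both groups, and the comparison asks what restraint changed. Control libraries held 31471145 to 39014775 counts and stress libraries 25978683 to 29655725. Haemoglobin transcripts made up 58.5% ± 5.17 of a control library and 68.4% ± 6.06 of a stress library (mean ± SD, n = 4 mice per group).

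Neutrophils are short-lived phagocytes that mature in the bone marrow and circulate in the blood until they are called into tissue. Late in maturation they switch off the genes of the earliest granules and switch on surface proteins, receptors and secreted factors by which they are recognised. Blood neutrophils hold little RNA for their number, so that in whole blood their transcripts are read beside far more abundant ones from immature red cells, platelets and lymphocytes. The common name of the 8 genes, surface and secreted markers, does not describe all of them. Ly6g, Cd177, Trem1 and Trem3 encode surface proteins and Retnlg and Pglyrp1 secreted or granule-stored ones, whereas Stfa2l1 encodes a cytosolic protease inhibitor and Mxd1 a nuclear repressor.

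On the TMM scale, in which the typical gene is taken as unchanged, the mean of 8 of the 8 genes was higher in the stress group. By edgeR 5 of them were called up, that is with a log2 fold change over 1 and an adjusted p under 0.01 (Ly6g, Cd177, Retnlg, Trem1 and Mxd1), where 1.69% of the 11718 tested genes were called up and 0.0171% down. The groups did not overlap, with the stress mice higher, for 6 of the 8, against 11.1% of all tested genes. Without Ly6g, which entered the test through the stress group, this held for 5 of the other 7. The 8 had a median log2 fold change of 1.22, against -0.025 over all tested genes. Whole blood was sequenced in bulk, so more neutrophils and more RNA of these genes per neutrophil cannot be told apart. The summed CPM (TMM-scaled counts per 1e6) of the 8 genes was 77.7, 74.0, 52.4 and 101.7 in control replicates 1 to 4 and 173.2, 155.1, 158.7 and 189.2 in stress replicates 1 to 4. The lowest stress sample was thus above the highest control sample on this scale. Scaled by total counts, the sums were 90.9, 109.0, 93.0 and 102.3 CPM in the control mice and 138.8, 112.8, 80.5 and 208.2 CPM in the stress mice, and stress replicate 3 lay below each control.

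The number of calls depended on single mice. Leaving out control replicate 2 or stress replicate 1 left 1 called gene, Retnlg, leaving out stress replicate 3 left 2, and leaving out control replicate 3 or stress replicate 4 left 3. Leaving out control replicate 4 kept 5. The whole table moved too, from 198 genes called up after stress to 76 without control replicate 2, 96 without control replicate 3, 151 without stress replicate 1 and 338 without control replicate 4. Without control replicate 2 or stress replicate 1 the log2 fold change was 2.72 or 2.63 for Ly6g and 1.41 or 1.26 for Trem1. The direction stayed upward in each of these fits for each of the 8 genes. Ly6g reached 10 counts in 1 control sample and 4 stress samples, so that it entered the test through the stress group. Of the 7 other genes 4 were called up, with a median log2 fold change of 1.06.

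**Figure D1:**
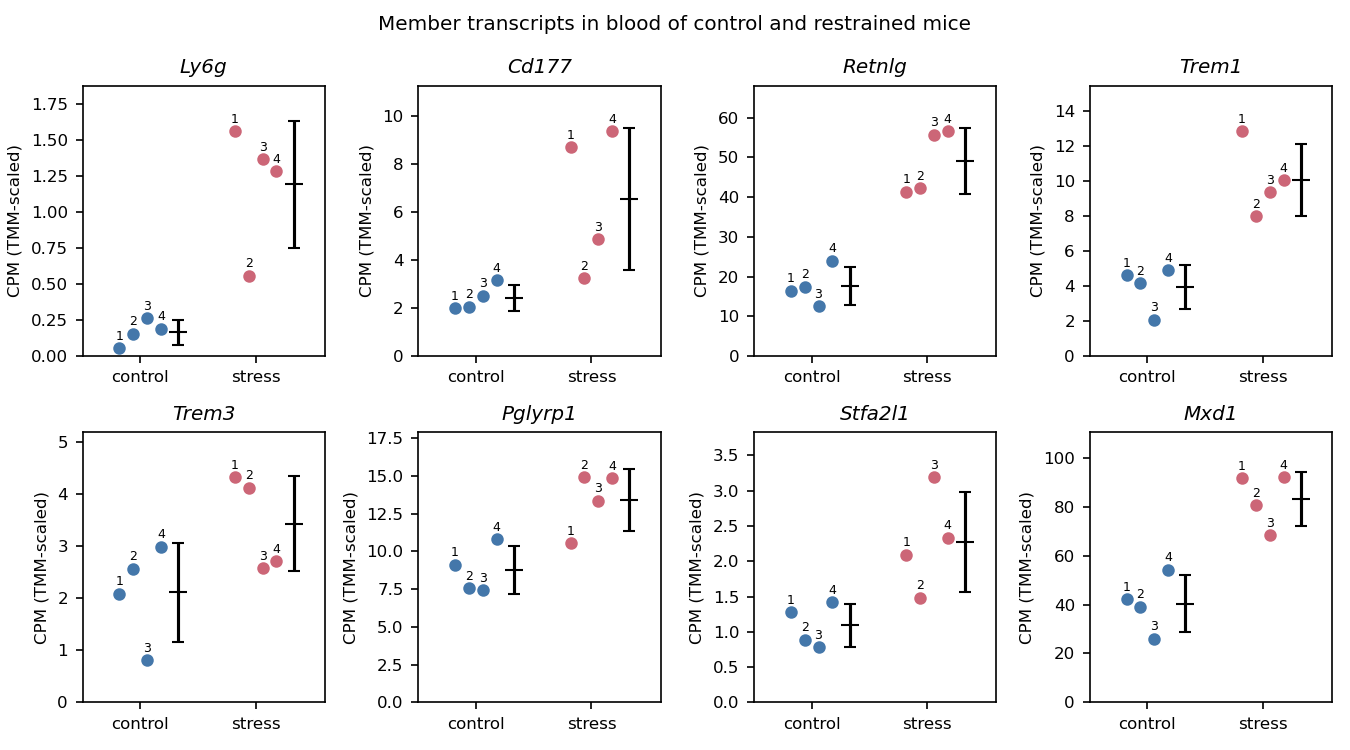
TMM-scaled CPM of each gene in each mouse, with numbered points for replicates and black bars for the mean ± SD of 4 samples, on linear axes from 0. Retnlg lies between 12.5 and 24.0 CPM in the control samples and between 41.4 and 56.6 CPM in the stress samples, whereas the groups of Trem3 and Pglyrp1 overlap.

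Promoter sequence was searched for motifs of factors that drive myeloid genes. RefSeq windows of 300 bases (GRCm38.p6, 250 before and 50 after the start) were matched for 7 of the 8 genes, with 2 windows for Ly6g. The letters searched on both strands were GAGGAA for PU.1 and other ETS factors, TTNNGNAA for C/EBP, TGTGGT for RUNX and CACGTG for the E-box that MXD1 and MAX bind, beside the glucocorticoid response element. A C/EBP match can contain the ETS letters, and none in these windows did. The ETS letters were in 5 of the 7 genes and 28.3% of all 32851 windows, and the C/EBP letters in 6 of the 7 genes and 40.7% of windows. The RUNX letters were in Stfa2l1 only (16.8% of windows), and the E-box (7.15%) and the glucocorticoid element (0.475%) were in none of the 7. A match is a description, and a missing match says only that these letters are not in the window.

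The 250 bases before the start are shown for the gene with the largest fold change (Ly6g, first start), the one that kept its call whichever mouse was left out (Retnlg), the called receptor (Trem1) and the one with the smallest fold change (Pglyrp1), with motif matches in capitals. They lie at chr15:75155011-75155260, chr16:48872358-48872607, chr17:48232489-48232738 and chr7:18884440-18884689, each on the plus strand. Among these, Ly6g, Retnlg and Trem1 hold C/EBP letters and Ly6g, Trem1 and Pglyrp1 hold ETS letters.
Ly6g: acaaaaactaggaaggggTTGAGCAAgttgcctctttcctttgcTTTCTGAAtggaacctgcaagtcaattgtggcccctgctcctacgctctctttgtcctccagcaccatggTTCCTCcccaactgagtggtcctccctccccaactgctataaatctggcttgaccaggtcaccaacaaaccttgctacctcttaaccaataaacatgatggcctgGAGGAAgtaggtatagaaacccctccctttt
Retnlg: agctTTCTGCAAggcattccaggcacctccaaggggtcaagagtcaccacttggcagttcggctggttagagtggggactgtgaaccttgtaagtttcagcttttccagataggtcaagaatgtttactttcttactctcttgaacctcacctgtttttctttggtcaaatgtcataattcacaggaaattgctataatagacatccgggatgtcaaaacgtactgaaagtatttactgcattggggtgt
Trem1: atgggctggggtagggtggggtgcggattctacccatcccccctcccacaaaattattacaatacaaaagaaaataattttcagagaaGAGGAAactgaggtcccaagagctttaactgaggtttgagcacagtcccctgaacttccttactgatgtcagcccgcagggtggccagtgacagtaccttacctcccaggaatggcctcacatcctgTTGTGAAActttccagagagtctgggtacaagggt
Pglyrp1: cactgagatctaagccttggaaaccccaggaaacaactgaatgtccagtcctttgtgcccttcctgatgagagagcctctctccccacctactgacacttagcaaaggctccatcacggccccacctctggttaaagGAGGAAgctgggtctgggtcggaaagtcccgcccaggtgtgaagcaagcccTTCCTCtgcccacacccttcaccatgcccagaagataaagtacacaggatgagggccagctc

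Ly6g and Cd177 are both held in the membrane by a lipid (GPI) anchor, and Ly6g is the antigen of the antibody most used to count mouse neutrophils. Ly6g was the scarcest of the 8 transcripts. Its raw counts were 2, 8, 18 and 6 in control replicates 1 to 4 and 35, 12, 18 and 40 in stress replicates 1 to 4. Scaled, these were 0.0543, 0.155, 0.260 and 0.189 CPM and 1.56, 0.556, 1.37 and 1.28 CPM. The groups did not overlap on this scale, although stress replicate 2 was well below the other stress mice. Ly6g had the largest log2 fold change of the 8, 2.77 (SE 0.49, 95% interval 1.72 to 3.81, edgeR adjusted p = 0.00303). It did not pass without control replicate 2 (edgeR adjusted p = 0.0156) or without stress replicate 1 (edgeR adjusted p = 0.0116).

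Low counts in this table are coarse. Among genes with 1 to 10 counts in a sample, between 70.1% and 74.6% had an even count, and 645 to 730 genes stood at 2 counts where 193 to 244 stood at 1. This is the pattern of a table in which both reads of a pair are often counted, so the low counts of Ly6g may rest on fewer fragments than their number, which was not tested. Ly6g also belongs to a family of close copies on chromosome 15, between which reads may be shared.

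CD177 associates with the integrin Mac-1 and binds PECAM-1 on endothelium. Cd177 was at 1.98, 2.05, 2.51 and 3.15 CPM in the control samples and at 8.70, 3.25, 4.86 and 9.38 CPM in the stress samples. Stress replicates 1 and 4 were high, and stress replicate 2 barely passed the highest control. Cd177 was called with a log2 fold change of 1.46 (SE 0.30, edgeR adjusted p = 0.00902), close to the threshold. It kept the call in 2 of the 8 fits with a sample left out, those without control replicate 4 and without stress replicate 2, and the edgeR adjusted p was 0.0148 to 0.0290 in the others. The log2 fold change in those others was 1.22 to 1.58. Cd177 was not called by limma-voom either.

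TREM-1 and TREM-3 are activating immunoglobulin-like receptors that lack a signalling tail of their own and act through the adaptor DAP12, and TREM-1 amplifies the response of neutrophils and monocytes to microbial products. Trem1 was at 4.62, 4.16, 2.07 and 4.89 CPM in the control samples and at 12.8, 7.98, 9.34 and 10.05 CPM in the stress samples. Control replicate 3 was the lowest and the groups did not overlap. Its log2 fold change was 1.38 (SE 0.24, edgeR adjusted p = 0.00363). The call was lost without control replicate 2 (edgeR adjusted p = 0.0126), without stress replicate 1 (0.0119) and without stress replicate 3 (0.0136).

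Trem3, the neighbour of Trem1, did not pass the test. Both genes lie on the plus strand of chromosome 17 in the GENCODE M21 annotation of GRCm38, Trem1 at chr17:48232768-48246924 and Trem3 at chr17:48247777-48258841, with 852 bases between them. Trem3 was at 2.09, 2.57, 0.809 and 2.995 CPM in the control samples and at 4.33, 4.13, 2.58 and 2.72 CPM in the stress samples. Stress replicates 3 and 4 fell within the control range. With a log2 fold change of 0.73 (SE 0.35, edgeR adjusted p = 0.169), Trem3 had a 95% interval of -0.018 to 1.48, which also holds the value of Trem1. The difference between the pair was not tested directly.

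Retnlg and Pglyrp1 encode the secreted products. Retnlg, a resistin-like hormone made by granulocytes, kept its call more often than any other of the 8 when a mouse was left out. It was at 16.4, 17.4, 12.5 and 24.0 CPM in the control samples and at 41.4, 42.3, 55.7 and 56.6 CPM in the stress samples. The lowest stress sample exceeded the highest control sample by a wide margin. Retnlg was called with a log2 fold change of 1.48 (SE 0.18, edgeR adjusted p = 0.000900), and it passed in 8 of the 8 fits with a sample left out, with an edgeR adjusted p of 0.000517 to 0.00594.

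PGLYRP1 is a granule protein that binds bacterial peptidoglycan. Pglyrp1 was at 9.13, 7.58, 7.44 and 10.8 CPM in the control samples and at 10.5, 14.9, 13.4 and 14.9 CPM in the stress samples. Stress replicate 1 lay below control replicate 4, so the groups overlapped. For Pglyrp1 the log2 fold change was 0.63 (SE 0.15, 95% interval 0.30 to 0.95, edgeR adjusted p = 0.0161), the smallest of the 8. The upper end of this interval is below the threshold of 1.

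Stfa2l1 and Mxd1 act inside the cell. Stefin A proteins inhibit cysteine cathepsins, and MXD1 pairs with MAX to repress genes that MYC activates as myeloid cells stop dividing. Stfa2l1 was at 1.28, 0.890, 0.780 and 1.42 CPM in the control samples and at 2.10, 1.48, 3.19 and 2.34 CPM in the stress samples. The groups did not overlap, but stress replicate 2 was close to the highest control. Stfa2l1 had a log2 fold change of 1.06 (SE 0.30, edgeR adjusted p = 0.0315), which passed the fold threshold and not the adjusted p. Stfa2l1 is one of a cluster of near-identical genes, so its counts are uncertain.

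Mxd1 was by raw counts the most abundant of the 8, with 900 to 2872 counts per sample. It was at 42.1, 39.2, 26.1 and 54.3 CPM in the control samples and at 91.8, 80.6, 68.3 and 91.9 CPM in the stress samples. Each stress sample was above each control sample. Mxd1 was called at 1.04 on the log2 scale (SE 0.19, edgeR adjusted p = 0.00379), just over the fold threshold. It was called in 2 of the 8 fits with a sample left out, those without control replicate 1 (edgeR adjusted p = 0.00982) and without control replicate 4 (0.00161). Without control replicate 3 its log2 fold change was 0.88 and without stress replicate 4 it was 0.99, and in the other 4 fits the adjusted p was 0.0107 to 0.0165.

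The sizes of these changes depended on how libraries were scaled. The TMM factors of the control mice were 1.01 to 1.77 and those of the stress mice 0.507 to 1.10. With libraries scaled by total counts and nothing else, the median gene moved from a log2 fold change of -0.025 to -0.82, and with libraries scaled by the counts outside haemoglobin genes to -0.43. On total counts the log2 fold change was 1.95 for Ly6g, 0.77 for Cd177, 0.76 for Retnlg, 0.67 for Trem1, 0.37 for Mxd1, 0.31 for Stfa2l1 and 0.014 for Trem3, and that of Pglyrp1 turned to -0.12. Relative to the median of all genes on that scale, these became 2.77 for Ly6g, 1.59 for Cd177, 1.58 for Retnlg, 1.49 for Trem1, 1.19 for Mxd1, 1.13 for Stfa2l1, 0.84 for Trem3 and 0.70 for Pglyrp1. The order of the 8 genes was thus nearly the same. The spread between stress mice was wider on that scale, with Retnlg at 22.8 ± 2.78 and 38.6 ± 15.9 CPM of total counts (SD, n = 4).

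The calls differed between scales. On total counts 0 of the 8 were called by edgeR (3 had an unadjusted p below 0.05), with 14 genes called up after stress and 729 genes called down after stress in the whole table. At an unadjusted p below 0.05, 75 of all genes were up and 6977 down on that scale. On the non-haemoglobin total 3 were called (Ly6g, Retnlg and Trem1), with 57 genes up and 137 down, where TMM gave 198 up and 2 down. On the non-haemoglobin scale the groups of Ly6g, Retnlg and Trem1 did not overlap, 3 of the 8 against 3.79% of tested genes. Ly6g entered the test through the stress group, and without it this held for Retnlg and Trem1. On total counts this held for Retnlg alone, 1 of the 8 against 0.247% of tested genes. Retnlg was at 49.4, 60.0, 45.9 and 66.6 CPM of the non-haemoglobin total in the control samples and at 99.0, 103.9, 115.5 and 160.8 in the stress samples.

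**Figure D2:**
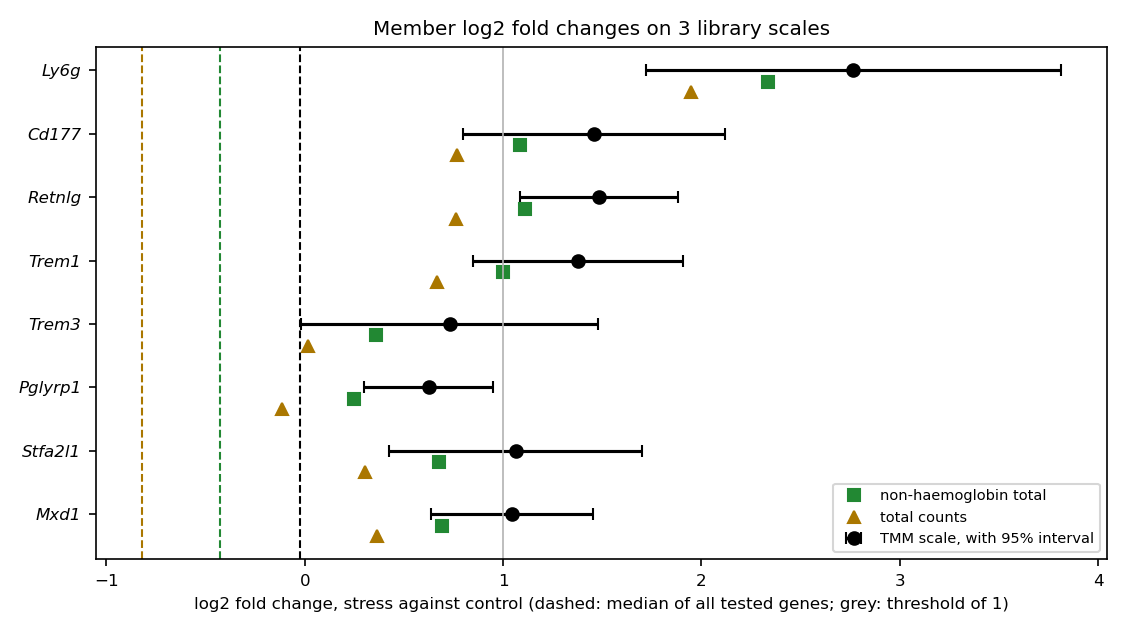
Log2 fold change of each gene, stress against control, on the TMM scale (circles with 95% intervals), scaled by the non-haemoglobin total (squares) and scaled by total counts (triangles), with dashed lines at the median of all tested genes on each scale and a grey line at 1. Each gene lies to the right of its scale's median, and Pglyrp1 is at -0.12 on total counts.

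Ratios within a sample need no library scaling. S100a8 and S100a9, which encode the calprotectin subunits that fill the neutrophil cytosol, served as the denominator. The log2 ratio of Retnlg to their sum was -2.09, -2.05, -2.13 and -1.86 in the control samples and -1.99, -1.96, -2.16 and -1.96 in the stress samples. These ranges overlapped almost entirely, and the mean difference was 0.015 (two-sided exact permutation test, p = 0.857). The proportion of Retnlg to S100a8 and S100a9 was thus nearly the same in both groups. Trem1 differed by -0.08 and Cd177 by -0.16 (exact permutation p = 0.771 and 0.743), each with a spread between mice larger than the difference.

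For Pglyrp1, the log2 ratio to S100a8 and S100a9 was -2.94, -3.25, -2.87 and -3.01 in the control samples and -3.96, -3.47, -4.22 and -3.89 in the stress samples. The 4 stress mice all lay below the 4 control mice. The difference was -0.87 (two-sided exact permutation test, p = 0.0286, the lowest value possible with 4 mice in each group), 1 of 8 such ratios tested. After adjustment over the 8 ratios, the planned test, neither this nor any other ratio to S100a8 and S100a9 passed at 0.05. With only this ratio at the lowest possible p, none could pass this adjustment. Against the mean of the other 7 genes the difference was -0.81 (exact permutation p = 0.0286), again with the stress mice below the control mice. It did not pass after the same adjustment. That mean includes Ly6g, which entered the test through the stress group. With Ly6g left out of the mean, the groups of Pglyrp1 overlapped, since stress replicate 2 lay above control replicates 2 and 4.

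Ly6g went the other way, with a difference of 1.37 against S100a8 and S100a9 (exact permutation p = 0.0571) and of 1.74 against the other 7 genes (exact permutation p = 0.0571). Here the groups overlapped, since control replicate 3 had a higher ratio to S100a8 and S100a9 (-7.67) than stress replicate 2 (-8.15). The differences of Trem3, Stfa2l1 and Mxd1 against S100a8 and S100a9 were -0.67, -0.44 and -0.41 (exact permutation p = 0.171, 0.0857 and 0.143), each with overlapping groups. Against the non-haemoglobin total, Ly6g, Retnlg and Trem1 differed by 2.45, 1.10 and 1.00 (exact permutation p = 0.0286 each). On that reference Mxd1 differed by 0.67, Cd177 by 0.93, Stfa2l1 by 0.65, Pglyrp1 by 0.22 and Trem3 by 0.41 (exact permutation p = 0.0571, 0.114, 0.0857, 0.343 and 0.4), and none of the 8 passed at 0.05 after adjustment over them. With only Ly6g, Retnlg and Trem1 at the lowest possible p, no ratio could pass this adjustment.

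**Figure D3:**
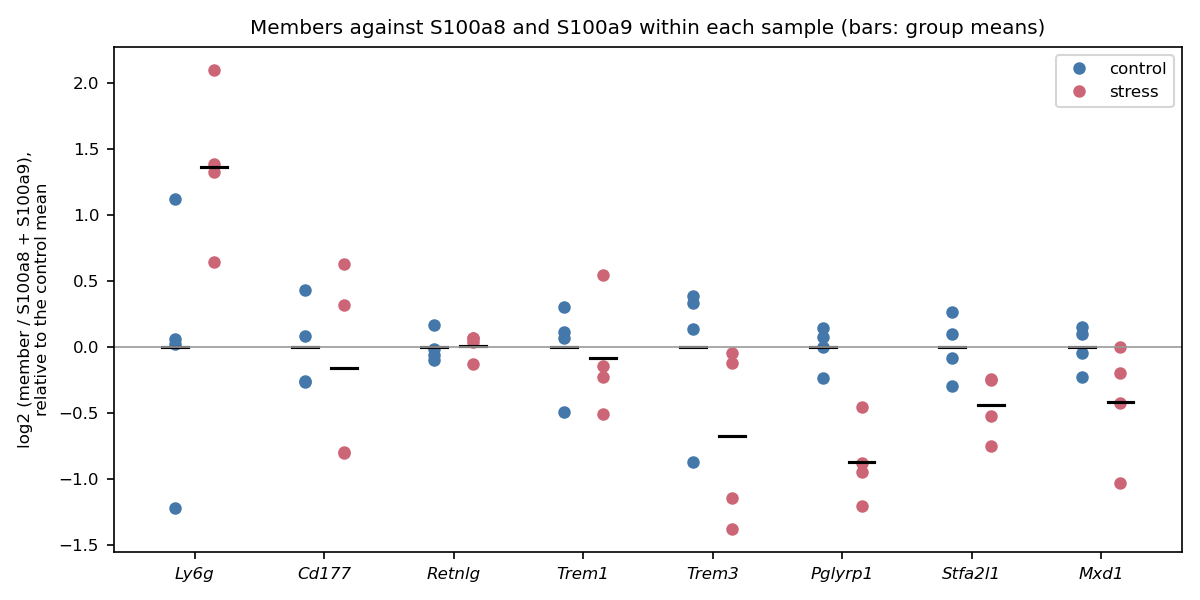
Log2 ratio of each gene's count to the summed count of S100a8 and S100a9 in each sample, relative to the control mean, with black bars at group means. The 4 stress samples of Pglyrp1 lie below its 4 control samples (mean difference -0.87), and those of Retnlg lie on the control values (0.015).

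Levels can be compared between genes only per length, for which the union of annotated exons in GENCODE M21 was used. In the control group Retnlg stood at 29.6 ± 8.05 CPM per kilobase (SD, n = 4), level with S100a8 at 29.6 and below S100a9 at 96.4. Mxd1 and Pglyrp1 followed at 5.71 ± 1.64 and 4.76 ± 0.860, which do not differ beyond their spread. Stfa2l1 (2.60 ± 0.728), Trem3 (2.13 ± 0.953), Trem1 (1.31 ± 0.427) and Cd177 (0.854 ± 0.190) came next, each overlapping its neighbour in this order within 1 SD, and Ly6g (0.175 ± 0.0909) stood apart as the lowest. In the stress group Retnlg stood at 82.6 ± 14.0, Mxd1 at 11.8 ± 1.59, Pglyrp1 at 7.30 ± 1.12, Stfa2l1 at 5.43 ± 1.68, Trem3 at 3.46 ± 0.921, Trem1 at 3.35 ± 0.684, Cd177 at 2.30 ± 1.04 and Ly6g at 1.26 ± 0.466 CPM per kilobase. The order of the means was the same in both groups. In the stress group the genes from Pglyrp1 to Ly6g each overlapped their neighbour in this order within 1 SD. No exon of the 8 overlapped an exon of another annotated gene on either strand.

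Which control mouse was highest depended on the scale. Control replicate 4 was the highest control for 7 of the 8 genes and control replicate 3 the lowest for 6 of the 8, on the TMM scale. On the non-haemoglobin total these counts were 4 and 5, and on total counts 0 and 3. Haemoglobin took 63.8% of the counts in control replicate 4 and 51.9% in control replicate 3, the extremes of the control group, and their TMM factors were 1.01 and 1.77. The part of the haemoglobin share in these differences was not tested. In the stress group, again on the TMM scale, no mouse led so often, since stress replicates 1 and 4 were each highest for 3 genes and stress replicate 2 was lowest for 4. Stress replicate 2 was the lowest of its group for Ly6g, Cd177, Trem1 and Stfa2l1 and the highest for Pglyrp1.

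Other genes of mature neutrophils, listed without the 8, moved the same way. Of 24 tested genes, 23 were higher in the stress group and 16 were called up, with a median log2 fold change of 1.43. The list covers granule enzymes, chemokine and formyl peptide receptors and inflammatory mediators. Called up were Lrg1, a secreted glycoprotein (2.25), Lcn2, an iron-scavenging granule protein (2.12), Mmp8, a granule collagenase (2.09), and Il1r2, a decoy receptor for interleukin-1 (2.03), each given as its log2 fold change. Clec4d, Hp, Fpr2, S100a9, S100a8, Mcemp1, Fpr1, Ifitm6, Cxcr2, Anxa1, Slpi and Hdc were the other 12. Mmp8 lost its call without control replicate 3 or stress replicate 3, and Hp and Anxa1 lost theirs without stress replicate 3. The log2 fold changes in these fits were 1.97 and 2.20 for Mmp8, 1.56 for Hp and 1.18 for Anxa1. Cxcr2 (5 of 8 fits), Fpr1 (4), Fpr2 (3) and Ifitm6 (3) kept theirs in the number of fits given. Their lowest log2 fold changes over the 8 fits were 1.12, 1.13, 1.38 and 1.10. Leaving out 1 sample gave 11 to 18 called genes, the lowest without stress replicate 3 and the highest without control replicate 4. On total counts 4 of the 24 were called up and 0 down.

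The genes listed for immature neutrophils were granule genes and others, such as the regulators Cebpe and Gfi1. Of 12 listed, 7 were below the count filter, among them Elane, Mpo, Ctsg and Camp, with 4, 12, 4 and 30 counts summed over the 8 samples, and Ms4a3 had 0. Of the 5 tested, Chil3 was called up, from 6.80 ± 1.92 to 50.2 ± 20.8 CPM (SD, n = 4), with a log2 fold change of 2.89 (SE 0.31, edgeR adjusted p = 0.000768). Chil3, a chitinase-like lectin, is also made by monocytes and macrophages. The other 4 did not pass, namely Ltf (0.84) and Ngp (0.81), which encode proteins of the later granules, Cebpe (1.11), their regulator, and Gfi1 (-0.17), a repressor needed for neutrophil formation (edgeR adjusted p = 0.209, 0.154, 0.117 and 0.745). Without stress replicate 4 the value of Gfi1 turned above 0.

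In the TREM pathway 1 of 11 tested genes was called up, and the median log2 fold change was 0.44, which turned to -0.35 on total counts. It was Treml1, a platelet relative of the TREM receptors (log2 fold change 1.03, edgeR adjusted p = 0.00275), and it lost the call in 4 of the 8 fits with a sample left out, those without control replicates 2 or 3 or stress replicates 2 or 3, as well as on both other scales and with a replicate block. Tyrobp, the gene of the adaptor DAP12, and Card9 and Bcl10, signalling relays behind it, passed the adjusted p but not the fold threshold, at 0.93, 0.87 and 0.44 (edgeR adjusted p = 0.00199, 0.00625 and 0.00884), and Bcl10 turned to -0.35 on total counts. These 3 were singled out after their values were seen, and Tyrobp was called in 2 of the 8 fits, those without control replicate 4 and without stress replicate 2. Of the binding partners of CD177, 3 were tested and 0 called up (edgeR, with 3 at an unadjusted p below 0.05 and 0 called by DESeq2 or limma-voom). These were Itgam and Itgb2, the chains of Mac-1 (0.66 and 0.43), and Pecam1 (0.47), and Itgb2 and Pecam1 turned to -0.33 and -0.31 on total counts.

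Close relatives of the 8 were looked up as well, and differences in detection between families were not tested. Of all 21878 symbols 11718 passed the count filter. Of the Ly6 and uPAR genes 11 of 14 passed the count filter, of the other resistin genes 0 of 3 and of the other peptidoglycan recognition genes 1 of 3. In the Ly6 and uPAR family, with a median log2 fold change of 0.37 (-0.46 on total counts), 1 of 11 tested genes was called up, Cd59b, a complement regulator (log2 fold change 1.51, edgeR adjusted p = 0.00264). The call was lost without control replicate 2 or stress replicate 1, and on total counts. The other resistin genes, Retn, Retnla and Retnlb, had 36, 16 and 0 counts in all and were not tested. Pglyrp3 had 0 counts and Pglyrp4 had 61, and Pglyrp2, the one relative tested, stood at 19.5 CPM in control blood and 15.4 CPM in stress blood and had a log2 fold change of -0.34 (edgeR adjusted p = 0.0436) and was not called. Of 15 stefin names 10 were in the table and 2 were tested, Gm5483 (1.15) and Cstb (0.30), with 0 called by edgeR and 1 at an unadjusted p below 0.05. Cstb turned to -0.10 on the non-haemoglobin total and -0.47 on total counts.

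In the network of MYC, MAX and their partners, to which MXD1 belongs, 8 genes were tested and 0 called by edgeR, DESeq2 or limma-voom, with 2 at an unadjusted p below 0.05. Mxi1, a relative of Mxd1, and Max had the smallest p, at log2 fold changes of 0.84 and 0.70, and Myc stood at 0.23. Max turned to -0.089 and Myc to -0.55 on total counts. Mnt, Mlxip and Mga were lower, at -0.27, -0.25 and -0.27. Leaving out control replicate 4 called 1 gene, Mxi1.

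**Figure D4:**
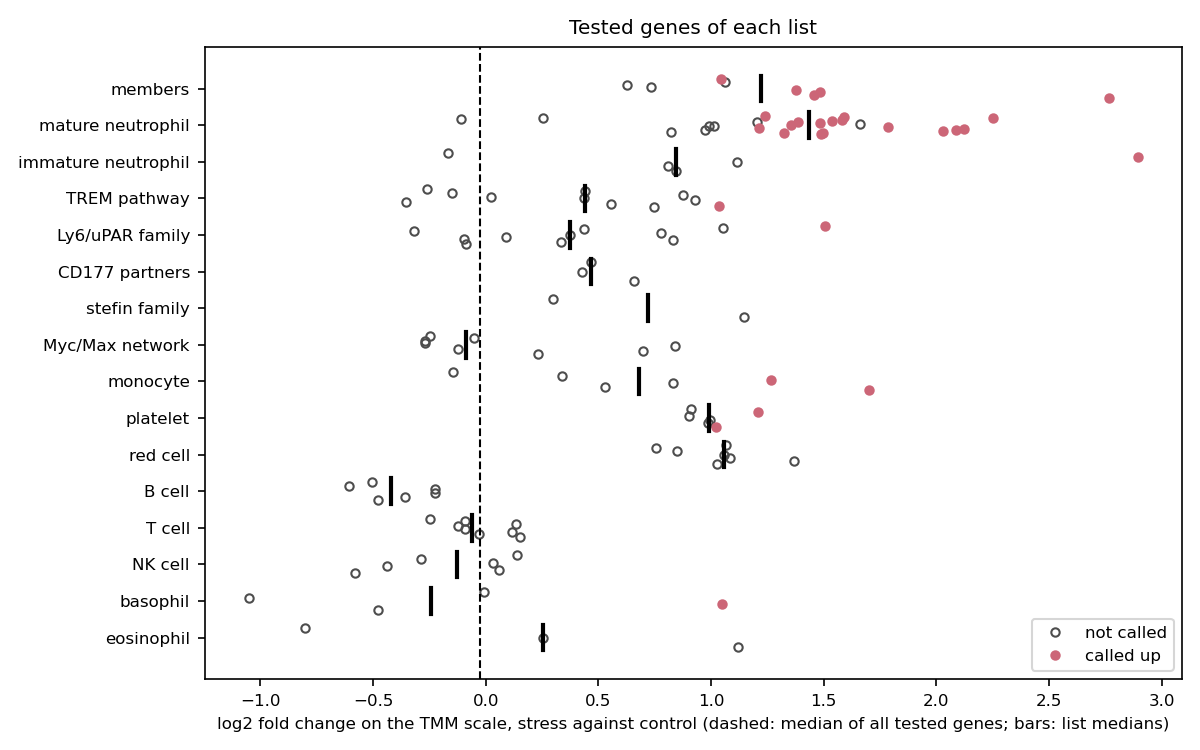
Log2 fold change of each tested gene on the TMM scale, by list, with filled points for genes called up, open points for others, black bars for list medians and a dashed line at the median of all tested genes (-0.025). The 8 genes and the other mature neutrophil genes have medians of 1.22 and 1.43, and the T cell list has a median of -0.061.

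Markers of other blood cells were read beside these values, and their part in the results was not tested. The summed CPM of 6 monocyte markers was 132.3, 100.7, 122.7 and 142.9 in the control samples and 293.7, 174.9, 227.1 and 284.2 in the stress samples. Of the 6, 2 were called up, F13a1 (1.27) and Ccr2 (1.70), and Ccr2 kept the call in 1 of the 8 fits with a sample left out, that without stress replicate 2, and was not called by limma-voom or with a replicate block. On total counts and on the non-haemoglobin total 0 of the 6 were called up, and their median log2 fold change went from 0.68 to -0.077 on total counts. F13a1 was the most abundant, and none of the 6 stood at 0. Trem1 and Mxd1 are also transcribed in monocytes. The sum of 6 platelet markers went from 1395 ± 301.0 to 2781 ± 347.5 CPM (SD, n = 4), with Ppbp the most abundant, 6 of 6 higher and 2 called up (Pf4 and Gp1bb). Leaving out control replicate 4 called 6 of them, and leaving out control replicate 2 or 3 or stress replicate 1, 2 or 3 called 1. On each of the 2 other scales 0 were called, and with a replicate block Pf4 was not.

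Of the lymphocyte markers 0 were called up by edgeR. On the TMM scale 3 T cell markers were higher and 5 lower, and 3 NK cell markers were higher and 3 lower. The 8 T cell markers summed to 373.7 ± 15.5 CPM in control mice and 368.1 ± 45.8 CPM in stress mice, with Lck the most abundant and 0 called by edgeR, DESeq2 or limma-voom (0 at an unadjusted p below 0.05). The 6 B cell markers were each lower, with sums of 829.6 ± 91.3 and 648.7 ± 79.3 CPM and Cd79a the most abundant, and 0 were called by the same tools (4 at an unadjusted p below 0.05), whereas on total counts 6 of 6 were called down. The 6 NK cell markers, led by Gzma, summed to 71.2 ± 19.1 and 66.3 ± 29.7 CPM, with 0 called by these tools, 2 at an unadjusted p below 0.05 and 2 called down on total counts. Of the 7 red cell genes, led by Hbb-bs, 7 were higher and 0 were called by edgeR (2 at an unadjusted p below 0.05, 1 called by DESeq2).

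Basophil and eosinophil markers were scarce. The 6 basophil and mast cell markers summed to 8.56 ± 0.290 and 14.8 ± 1.91 CPM, of which Gata2, a regulator shared with platelet precursors, made up 6.31 and 13.1. Gata2 was called up, except without stress replicate 1, on total counts and on the non-haemoglobin total. The 5 eosinophil markers, led by Il5ra, summed to 8.68 ± 0.736 and 7.45 ± 0.816 CPM, and 0 were called by edgeR, DESeq2 or limma-voom (1 up and 1 down at an unadjusted p below 0.05). Il5ra was called down on total counts and on the non-haemoglobin total. None of these markers stood at 0 in all samples.

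The genes whose profile over the 8 samples was most like that of the 8 were found by the root mean square difference of centred log2 CPM. Nearest to their mean profile were Ppp1r3d, a glycogen-targeting phosphatase subunit (0.141), P2ry1, a nucleotide receptor (0.142), Pla2g7, a phospholipase (0.153), Fcgr3, an activating Fc receptor (0.159), and Pygl, a glycogen phosphorylase (0.164), each given in log2 units. Retnlg lay closest to S100a9, at 0.0806, the smallest distance found for a single member. Mxd1 was nearest to Fcgr3 (0.103), Stfa2l1 to Cd59a (0.0940), Pglyrp1 to Ppif (0.115), Cd177 to Ccl9 (0.150), Trem1 to Ptafr (0.206), Trem3 to Ptprn (0.259) and Ly6g to Msr1 (0.385). Ppif, the neighbour of Pglyrp1, had a log2 fold change of 0.69 that turned to -0.072 on total counts. Within the set, Mxd1 (0.191) and Retnlg (0.200) were closest to the mean profile and Ly6g (0.813) farthest.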

How the data were processed

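Whole blood from 8 mice was sequenced, 1 library each. The deposited values are raw counts of reads by gene symbol, not normalized. The submitters' processing notes name HISAT2, featureCounts and the mm10 build. Annotation, strand setting and handling of read pairs are not given in the sources used here. Counts were analysed in R 4.3.3 with edgeR 4.0.16 (TMM, robust quasi-likelihood test, Benjamini-Hochberg adjustment) over the 11718 genes that reached 10 counts in 4 or more mice. Calls needed a log2 fold change beyond 1 in either direction with an adjusted p under 0.01. The fit was tested on simulated data. Within-sample log2 ratios used a pseudocount of 0.5 and exact permutation over 70 assignments. Alternatives were DESeq2 1.42.0, limma-voom (limma 3.58.1), glmTreat, other scalings, filters and thresholds, a block on replicate number and fits lacking 1 mouse. Named genes were the 8, of each list those past both thresholds or otherwise up to 3 with the smallest p in each direction, and those nearest in profile. Tyrobp, Card9, Bcl10, Ltf, Ngp, Cebpe and Gfi1 were added to these after their values were seen. The members and lists were chosen with earlier results of these data known. P-values measure the spread between mice of 1 experiment. The result of 1 gene of the mature neutrophil list is not reported here.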

Additional observations from a re-analysis of the deposited data

Results flagged for a closer look

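The summed CPM of the NK cell markers in the stress group had 1 sample far from the others, stress replicate 3 at 110.6 CPM beside 55.9, 50.4 and 48.4 in stress replicates 1, 2 and 4. The gap between stress replicate 3 and its nearest neighbour was 0.879 of the group's range. Of 38 groups of 4 samples checked in this way, 1 was so extreme, and chance alone gives such a gap in about 1 group of 20. Stress replicate 3 also had the fewest counts outside haemoglobin genes, 6352711.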

How the results depend on the processing

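Of the 8 genes, 5 were called up by edgeR with TMM (198 of all 11718 tested genes), 6 by DESeq2 (307 of 15930) and 4 by limma-voom (223 of 11718). With glmTreat against a fold change of 2, 0 were called (4 at an unadjusted p below 0.05), and 0 genes up and 0 down overall (154 and 11 at that p). On total counts 0 were called (3 at that p), their median was 0.52 (log2), and 14 genes called up after stress stood against 729 genes called down after stress. On the non-haemoglobin total 3 were called, with a median of 0.85, and 57 genes up and 137 down. With at least 10 counts in all samples 3 were called, against 183 of 10367 genes called up in that fit. Ly6g was outside it and Cd177 did not pass the test. DESeq2 called 307 genes up and 12 down, and an adjusted p below 0.05 gave 337 and 20. The genes called down were 4 with upper quartile scaling and 4 without a count filter. With a replicate block 5 of the 8, 189 genes up and 1 down were called, and same-numbered samples did not deviate together (r = 0.062, 0.00044, -0.045 and -0.16). Leaving out 1 sample gave 1 to 5 of the 8, 76 to 338 genes up and 1 to 8 down. For genes whose log2 fold change is given above, reversed values on total counts were -0.12 for Pglyrp1, -0.31 for Pecam1, -0.33 for Itgb2, -0.47 for Cstb, -0.089 for Max, -0.55 for Myc, -0.072 for Ppif and -0.35 for Bcl10. On the non-haemoglobin total they were -0.10 for Cstb and -0.17 for Myc. None of these passed the test. Other tested genes of the lists reversed too, such as Treml2 (0.55 to -0.17) and Csf1r (0.53 to -0.15) on total counts. Gfi1 went from -0.17 to 0.086 without stress replicate 4 and to -0.43 without stress replicate 3. With T cell markers in place of the non-haemoglobin total, an alternative chosen after seeing the data, the log2 ratios of Ly6g, Retnlg, Trem1, Pglyrp1 and Mxd1 differed by 2.88, 1.53, 1.44, 0.65 and 1.11 (exact permutation p = 0.0286 each, below 0.05 after adjustment over the 8), and those of Cd177, Stfa2l1 and Trem3 by 1.36, 1.08 and 0.85 (exact permutation p = 0.0571, 0.0571 and 0.143). The cause of these shifts was not tested. Ly6g entered the test through the stress group. Without it, no other ratio to the T cell markers would be below 0.05 after adjustment. Depth limits Ly6g most, with 2 to 40 counts per sample.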
